A study of Mus musculus with 8 samples.

Results

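Polyamine synthesis and breakdown was described here by 9 genes, picked by symbol: Odc1, Amd1, Srm, Sms, Smox, Sat1, Paox, Oaz2 and Azin1. Of these 9, 5 (Srm, Sms, Smox, Oaz2 and Azin1) had a probe set with a single gene symbol in the array's annotation, out of 14860 genes in all, and each of the 5 had 1 such probe set. Odc1, Amd1, Sat1 and Paox were not analysed here. RNA was taken from tibialis anterior muscle, which lies along the shin and holds mainly fast fibres. The mice were males aged 8 weeks with a muscle-specific ATF4 knockout (ATF4 mKO). ATF4 is a transcription factor of the integrated stress response, and all muscles of both groups came from such mice. The Gadd45a plasmid group consisted of 4 right muscles given pCMV-FLAG-Gadd45a, which drives a tagged Gadd45a from a viral promoter, and the control plasmid group of 4 left muscles given the empty plasmid pcDNA3. All were taken on day 7 after transfection, and 1 array per muscle was used.

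The side of the body cannot be told apart from the plasmid, since each plasmid went into 1 side only. The empty plasmid makes no tagged protein, so making any protein and making Gadd45a cannot be told apart either. Which Cre driver removed ATF4 is not stated in the labels. Whether each array of a group stands for its own mouse is not stated in the labels, so the p-values refer to the spread between these samples, part of which may be technical. The study asked which muscle mRNAs change when Gadd45a, a small nuclear protein induced in atrophying muscle, is forced into fibres without ATF4.

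Polyamines are small positively charged molecules that bind RNA, DNA and proteins and are needed for growth and translation. Ornithine decarboxylase (Odc1) makes putrescine. Spermidine synthase (Srm) and then spermine synthase (Sms) lengthen it with aminopropyl groups that S-adenosylmethionine decarboxylase (Amd1) supplies. Breakdown runs the other way: spermine oxidase (Smox) turns spermine straight back into spermidine, while Sat1 acetylates polyamines for export or for oxidation by Paox. Antizymes such as Oaz2 hold ornithine decarboxylase and deliver it to the proteasome, and the antizyme inhibitor Azin1, a relative of the decarboxylase without its activity, takes antizymes away from it. In mouse skeletal muscle Smox is known for falling in several forms of atrophy.

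Promoter sequences are shown for the enzymes that join spermidine and spermine in opposite directions: Smox, which had the largest difference between the groups among the 5 genes, and Sms, which makes the spermine that Smox consumes. They are from RefSeq on build GRCm38.p6 and hold 250 bases before and 50 after the annotated start. The Smox window is chr2:131491612-131491911 on the plus strand and the Sms window is chrX:157492238-157492537 on the minus strand. Capitals mark GGGCGG on either strand, the GC box, and CACGTG, the E-box that Myc proteins bind.

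Smox: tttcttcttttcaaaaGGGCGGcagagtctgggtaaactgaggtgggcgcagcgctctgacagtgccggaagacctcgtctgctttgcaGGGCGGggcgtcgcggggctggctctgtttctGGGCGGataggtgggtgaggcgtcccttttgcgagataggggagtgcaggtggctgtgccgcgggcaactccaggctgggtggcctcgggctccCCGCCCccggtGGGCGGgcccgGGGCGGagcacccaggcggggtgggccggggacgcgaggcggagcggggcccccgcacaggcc

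Sms: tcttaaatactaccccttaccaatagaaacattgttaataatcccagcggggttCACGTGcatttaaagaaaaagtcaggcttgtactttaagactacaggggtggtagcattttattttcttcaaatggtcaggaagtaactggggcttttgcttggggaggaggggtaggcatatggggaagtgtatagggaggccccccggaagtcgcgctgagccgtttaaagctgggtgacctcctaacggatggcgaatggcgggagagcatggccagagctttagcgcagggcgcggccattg

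The Smox window held 6 GC boxes, 5 of them on the strand shown, and 0 CACGTG. Of 32544 promoter windows of this length, 35.9% held at least 1 GC box and 1.36% held at least 6. The Smox window was 71% G or C, against a median of 53% over all windows. The Sms window held 1 CACGTG, a motif in 7.17% of all windows, and 0 GC boxes. A further Sms window, at another annotated start, held 4 GC boxes, some overlapping each other, and 0 CACGTG. It was 74.3% G or C, against 50.3% in the Sms window shown. The contrast between the printed Smox and Sms windows thus depends on which Sms start is taken. The Oaz2 window held 4 GC boxes, of which 2 overlap, and 0 CACGTG. The composite element TGATGNAA, which ATF4 is known to bind, was found in 3.91% of all windows and in none of the windows of Smox, Sms or Oaz2. Srm and Azin1 had no entry in the promoter table. A match is a description of letters, and nothing about binding in these muscles follows from it.

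Of 16755 probe sets 21.1% passed at an adjusted p under 0.05 (limma, Benjamini-Hochberg over all probe sets), 10.8% higher and 10.3% lower with Gadd45a plasmid. The groups did not overlap in 26.9% of all probe sets. The median log2 fold change over all of them was -0.06, and array medians ran from 5.85 to 5.92 log2 units. Gadd45a itself averaged 10.33 ± 0.12 log2 units with Gadd45a plasmid and 7.76 ± 0.08 with control plasmid (SD, n = 4 each), with plasmid and endogenous RNA read together. Atf4, deleted in the muscle fibres of both groups, still gave a signal and rose, with 7.49 ± 0.10 with Gadd45a plasmid and 6.95 ± 0.09 with control plasmid (SD, n = 4 each; limma adjusted p = 0.00136). Muscle with intact ATF4 was not analysed here, so the deletion cannot be checked from these values, and the cells or transcript parts behind the signal were not tested. Of 16 fast muscle fibre markers, 14 were measured, and their mean level was 11.1 to 11.2 log2 units on the Gadd45a plasmid arrays and 11.3 to 11.4 on the control plasmid arrays. The sarcomeric myosins Myh4 and Myh1 were not among the measured markers. As a guide to dim signal, 801 probe sets of olfactory and vomeronasal receptor genes, which muscle is not known to use, had a median of 3.79 and a 95th percentile of 5.74 log2 units. The mean of each of the 5 polyamine genes lay above that percentile.

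Among the 5 measured genes 1 fell, 1 rose and 3 did not pass. The gene that fell was the breakdown enzyme Smox, to 2.35-fold less signal, and the gene that rose was the regulator Azin1, by 1.49-fold. The synthases Srm and Sms and the antizyme Oaz2 differed by less than the spread between arrays. With 5 genes, 1 call in each direction cannot be set apart from the background of 10.8% higher and 10.3% lower. Over the 5 genes the log2 fold change had a median of -0.09, beside -0.06 over all probe sets.

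**Figure D1:**
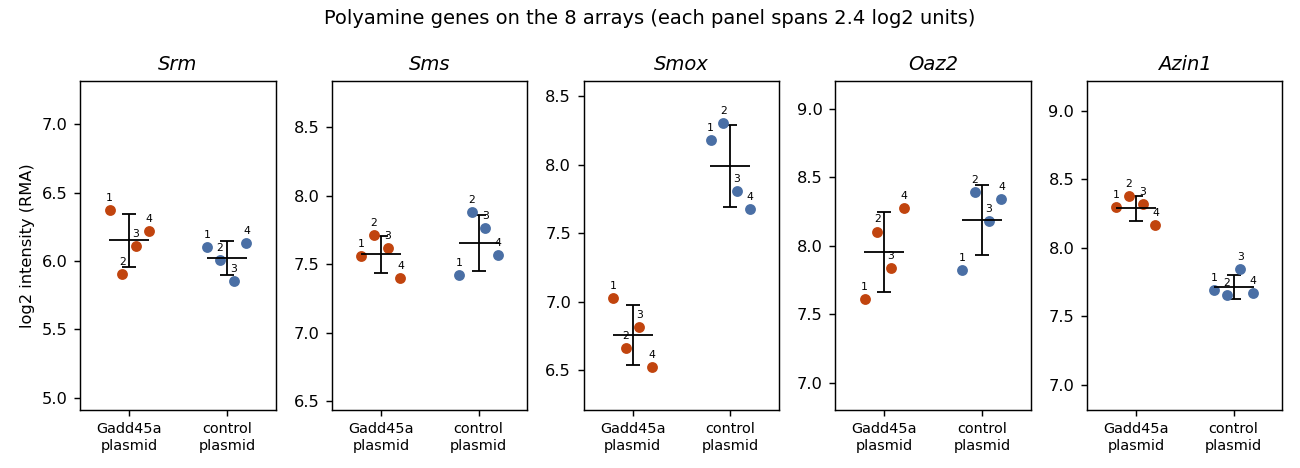
Log2 intensity of the 5 measured polyamine genes on each array, numbered 1 to 4 as in the labels, for Gadd45a plasmid (left, red) and control plasmid (right, blue). Horizontal lines are means and bars are SD (n = 4). The groups are apart in Smox and Azin1 and overlap in Srm, Sms and Oaz2.

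Srm, which makes spermidine from putrescine, had 6.37, 5.90, 6.11 and 6.22 log2 units on Gadd45a plasmid arrays 1 to 4, against 6.10, 6.01, 5.86 and 6.13 on control plasmid arrays 1 to 4. The groups overlapped, with the highest value on a Gadd45a plasmid array and the lowest on a control plasmid array. The log2 fold change was 0.13 (SE 0.11, 95% interval -0.12 to 0.37, limma adjusted p = 0.421). An exact two-sided permutation test over the 70 labellings of the arrays gave p = 0.314. This test, here and below, takes the arrays as unpaired. It would not apply as such if right and left muscles came from the same mice. The interval leaves room for a modest rise or a small fall.

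Sms, the spermine synthase, had 7.56, 7.71, 7.62 and 7.40 log2 units on Gadd45a plasmid arrays 1 to 4, against 7.42, 7.88, 7.77 and 7.57 on control plasmid arrays 1 to 4. The groups overlapped, and the control values spanned nearly the whole range of the Gadd45a values. The log2 fold change was -0.09 (SE 0.11, 95% interval -0.34 to 0.17, limma adjusted p = 0.605), and the exact permutation test gave p = 0.486. Neither synthase that was measured therefore passed in either direction.

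Smox, which oxidises spermine to spermidine and releases hydrogen peroxide, had 7.03, 6.66, 6.81 and 6.52 log2 units on Gadd45a plasmid arrays 1 to 4. On control plasmid arrays 1 to 4 it had 8.18, 8.30, 7.81 and 7.68. Every Gadd45a plasmid array was below every control plasmid array, and the gap between the groups, 0.65, was wider than the range within the Gadd45a group (0.51) or the control group (0.63). Smox averaged 6.76 ± 0.22 with Gadd45a plasmid and 7.99 ± 0.30 with control plasmid (SD, n = 4 each). The log2 fold change was -1.23 (SE 0.16, 95% interval -1.59 to -0.88, limma adjusted p = 0.000676). The exact permutation test gave p = 0.0286, the smallest that 70 labellings allow. Only 20 probe sets of 16755 had a lower log2 fold change, and 0.519% had one as large in either direction.

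The replicate spread of Smox was wide for this platform: its pooled SD within groups was above that of 87.6% of probe sets. Arrays 1 and 2 were higher than arrays 3 and 4 in the control group, while in the Gadd45a group array 1 was highest and array 4 lowest. The fall passed in each of 12 leave-out fits, 8 without 1 array and 4 without both arrays of 1 number, with log2 fold changes between -1.34 and -1.10 and adjusted p between 0.00106 and 0.00849.

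Oaz2, an antizyme, had 7.61, 8.10, 7.84 and 8.27 log2 units on Gadd45a plasmid arrays 1 to 4, against 7.82, 8.39, 8.18 and 8.34 on control plasmid arrays 1 to 4. The groups overlapped over most of their range, and array 1 was the lowest in both. The log2 fold change was -0.23 (SE 0.16, 95% interval -0.60 to 0.14, limma adjusted p = 0.335), and the exact permutation test gave p = 0.257. This is the widest interval among the 5 genes, and a fall of up to 0.60 lies within it.

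Azin1, the antizyme inhibitor, had 8.30, 8.38, 8.32 and 8.16 log2 units on Gadd45a plasmid arrays 1 to 4. On control plasmid arrays 1 to 4 it had 7.69, 7.66, 7.84 and 7.67. All Gadd45a plasmid arrays were above all control plasmid arrays, with a gap of 0.32 between the groups and ranges of 0.22 and 0.19 within the Gadd45a and the control group. Azin1 averaged 8.29 ± 0.09 with Gadd45a plasmid and 7.72 ± 0.09 with control plasmid (SD, n = 4 each). The log2 fold change was 0.57 (SE 0.08, 95% interval 0.40 to 0.74, limma adjusted p = 0.000825), and the exact permutation test gave p = 0.0286.

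Azin1 changed less than Smox but with a smaller spread: its pooled SD was above that of only 18.7% of probe sets, and 6.21% of all probe sets had a change as large in either direction. In the 12 leave-out fits its log2 fold change ran between 0.52 and 0.62, with adjusted p between 0.00145 and 0.0135. These are mRNA signals only. Protein and polyamine levels were not analysed here.

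**Figure D2:**
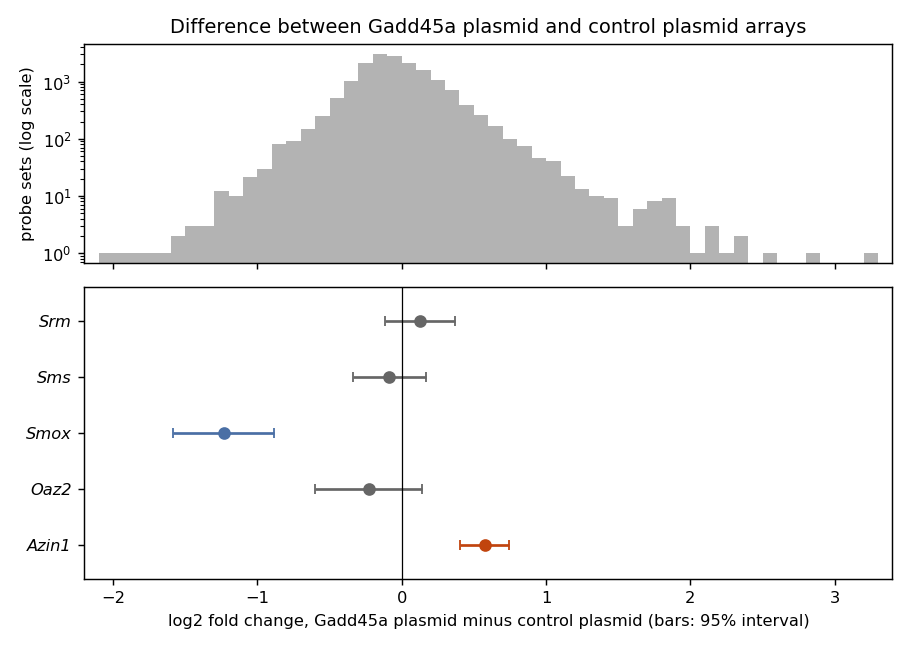
Log2 fold change of Gadd45a plasmid over control plasmid. The upper panel counts all 16755 probe sets on a log scale, and the lower panel gives the 5 measured polyamine genes with 95% intervals from limma. The intervals of Smox and Azin1 exclude 0, and those of Srm, Sms and Oaz2 include it.

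**Figure D3:**
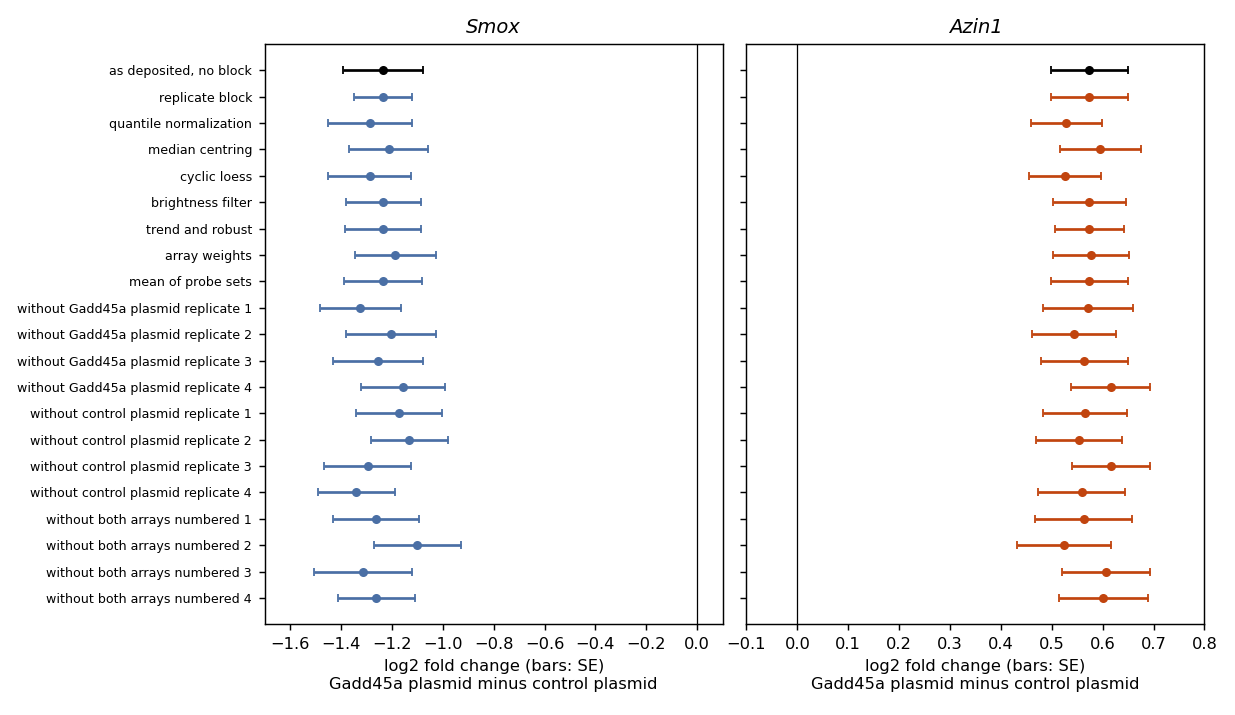
Log2 fold change of Smox (left) and Azin1 (right), Gadd45a plasmid over control plasmid, with bars for the SE, as deposited and under 20 other settings. Smox stays between -1.34 and -1.10 and Azin1 between 0.52 and 0.62.

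Other enzymes and regulators of polyamines did not pass. Of 8 such genes, 5 were measured, and 0 rose and 0 fell (median log2 fold change -0.05). Sat2, a relative of Sat1, had the largest difference, 6.63 ± 0.11 log2 units with Gadd45a plasmid and 6.35 ± 0.27 with control plasmid (SD, n = 4 each; log2 fold change 0.27, limma adjusted p = 0.161). Azin2, the second antizyme inhibitor, differed by -0.05 (adjusted p = 0.587). Oaz1, the most widely expressed antizyme, read 2.92 ± 0.36 and 3.12 ± 0.60 (SD, n = 4 each), below the median of the receptor genes used as a guide to dim signal. This probe set gives no usable level for Oaz1. Means of 3 of the 5 measured genes, Oaz1, Oaz3 and Aoc1, lay below the 95th percentile of the receptor genes.

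The supply of ornithine begins with arginine, which is also the substrate of nitric oxide and creatine synthesis. Of 15 measured genes of arginine and ornithine use 3 rose and 4 fell, with a median of -0.17. Over all probe sets 10.8% were higher and 10.3% lower. Those shares belong beside this count and the counts of all lists that follow, markers included, and no list was tested against them. The arginases Arg1 (-0.01, adjusted p = 0.943) and Arg2 (-0.17, adjusted p = 0.344), which make ornithine, did not pass. Nor did the arginine carriers Slc7a1 (-0.0037, adjusted p = 0.984) and Slc7a2 (-0.27, adjusted p = 0.081), of which Slc7a2 was the brighter. Means of 8 of the 15 genes, Arg1, Arg2 and Slc7a1 among them, lay below the 95th percentile of the receptor genes. For these, the absence of a call says little. The ornithine aminotransferase gene Oat, whose enzyme takes ornithine away from this route, fell by 0.54 (SE 0.09, limma adjusted p = 0.00228).

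The largest rises in that list were in creatine synthesis. Gatm, whose enzyme moves the amidino group of arginine to glycine as that pathway begins and so also releases ornithine, averaged 8.49 ± 0.20 log2 units with Gadd45a plasmid and 6.81 ± 0.14 with control plasmid (SD, n = 4 each; log2 fold change 1.68, SE 0.11). Gamt, which completes creatine with a methyl group from S-adenosylmethionine, rose by 0.96 (SE 0.11). The argininosuccinate lyase gene Asl rose by 0.37 (SE 0.07). The nitric oxide synthase genes Nos1 (-1.01), Nos2 (-0.31) and Nos3 (-0.28) fell, and the call for Nos2 was lost in 10 of the 12 leave-out fits, and that for Nos3 in 3. Both group means of Nos2 lay below the 95th percentile of the receptor genes. So did the Gadd45a plasmid means of Nos1 (5.73) and Nos3 (5.59), but not their control plasmid means. Gatm, Gamt, Asl, Oat and Nos1 passed in all 12.

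The methionine cycle provides S-adenosylmethionine, the source of the aminopropyl groups. Of 9 measured genes 2 rose and 1 fell, with a median of -0.13. Ahcy, which clears S-adenosylhomocysteine, averaged 6.47 ± 0.38 with Gadd45a plasmid and 5.40 ± 0.47 with control plasmid (SD, n = 4 each). It rose by 1.08 (SE 0.25, limma adjusted p = 0.0137), and its call was lost without both arrays numbered 1. Its control plasmid mean lay below the 95th percentile of the receptor genes. Nnmt (0.26) rose and Cbs (-0.26) fell, with calls lost in 10 and 11 of the 12 leave-out fits and, for Cbs, both group means below that percentile. Mat2b, the regulatory subunit of the S-adenosylmethionine synthetase found outside the liver, differed by -0.18 (adjusted p = 0.0816).

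Each aminopropyl transfer by Srm or Sms leaves methylthioadenosine, which a salvage route returns to methionine. Of 8 salvage genes, all measured, 0 rose and 4 fell, with a median of -0.31, beside -0.06 over all probe sets. Got1 (-0.83, SE 0.10) and Kyat3 (-0.52, SE 0.11) are aminotransferases that can serve its last step and have other main roles. The dioxygenase gene Adi1 (-0.36, adjusted p = 0.0264) and the isomerase gene Mri1 (-0.31, adjusted p = 0.0214) are more particular to the route, and their calls were lost in 7 and 6 of the 12 leave-out fits. Both group means of Mri1 also lay below that percentile, as did the Gadd45a plasmid mean of Kyat3 (5.52). Got1 passed in all 12, and Kyat3 failed in 2. Mtap, the phosphorylase that opens the route, differed by 0.07 (adjusted p = 0.727).

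Of 10 measured genes linked to polyamine transport 1 rose and 4 fell, with a median of -0.15. Atp13a2, the lysosomal polyamine exporter, differed by -0.08 (adjusted p = 0.463). Atp13a4 rose by 0.73 (SE 0.19) and Atp13a5, of the same pump family, fell by 0.44 (SE 0.08). The organic cation carriers Slc47a1 (-0.41) and Slc22a2 (-0.28) and the caveola protein Cav1 (-0.35) fell. Both group means of Atp13a4, Atp13a5 and Slc22a2 lay below the 95th percentile of the receptor genes. Calls were lost in 6 of the 12 leave-out fits for Atp13a4, in 11 for Slc22a2, and in 2 each for Slc47a1 and Cav1. Cav1 is abundant in endothelium and adipocytes.

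Spermidine is also the donor for hypusine, the modified residue of the translation factor eIF5A. Of 3 measured genes 0 passed: the deoxyhypusine synthase gene Dhps differed by -0.06 (adjusted p = 0.57), the hydroxylase gene Dohh by -0.07 and Eif5a2 by 0.12. Eif5a itself was not among the measured genes. Both group means of Dohh and of Eif5a2 lay below the 95th percentile of the receptor genes. Among the 11 genes of the Myc family, whose members are known to drive Odc1 in other cells, 1 rose and 2 fell, with a median of 0.02. With 11 genes, such counts cannot be set apart from the background of 10.8% higher and 10.3% lower. Myc differed by 0.18 (adjusted p = 0.18), and its control plasmid mean, 5.62, lay below the 95th percentile of the receptor genes. The Myc antagonists Mxi1 (-0.41, SE 0.08) and Mnt (-0.27, SE 0.08) fell and Mga rose by 0.23, and the calls for Mnt and Mga were lost in 10 and 9 of the 12 leave-out fits.

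**Figure D4:**
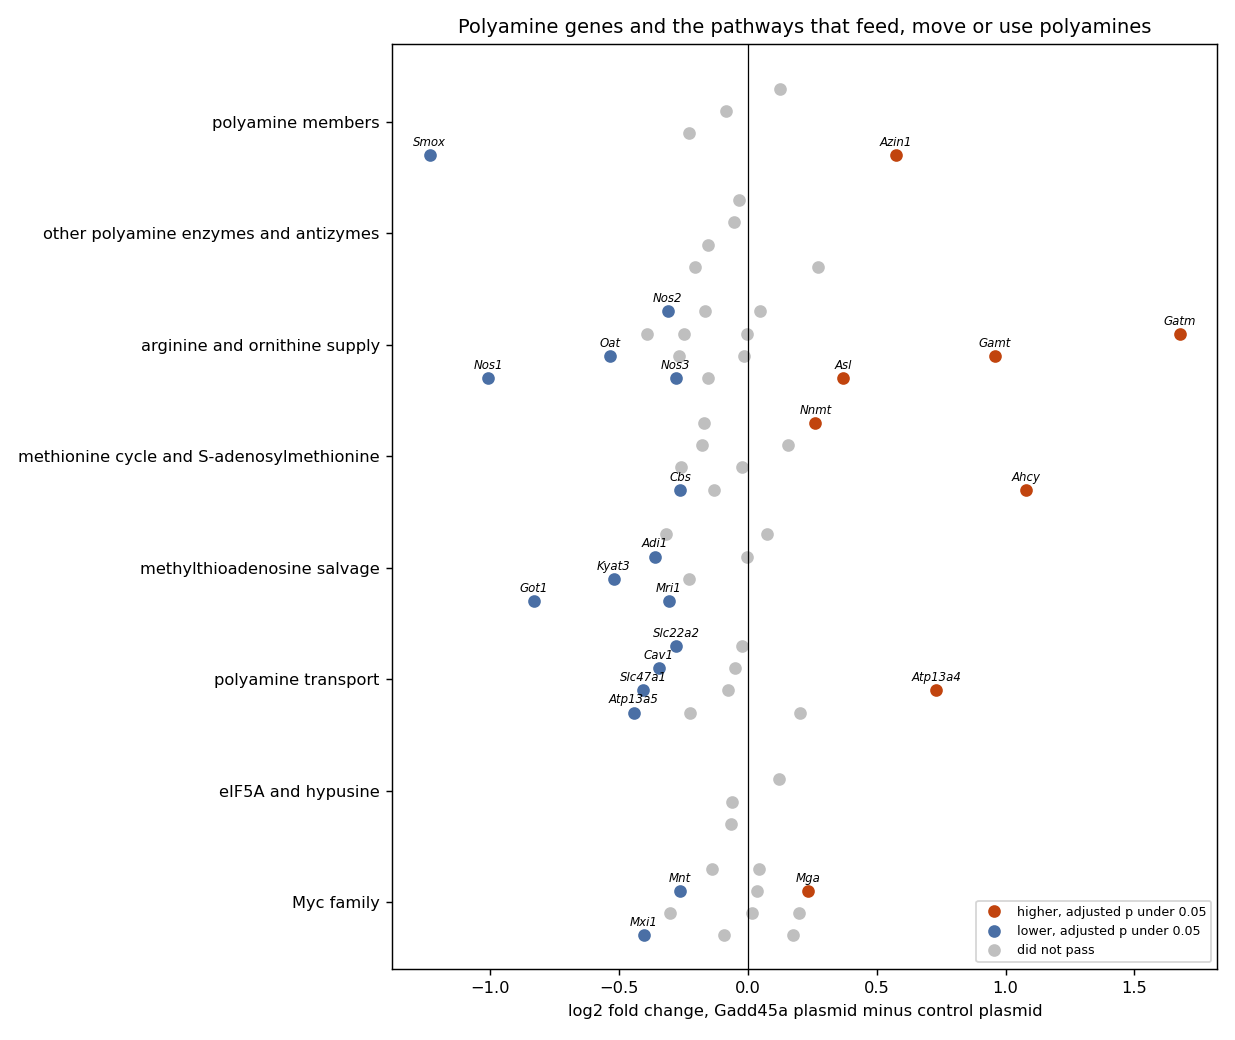
Log2 fold change, Gadd45a plasmid over control plasmid, of each measured gene of 8 lists, spread vertically for legibility. Coloured points passed at an adjusted p under 0.05 and are named. Smox is the lowest and Gatm the highest point.

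Muscle RNA comes from several cell types, and in bulk tissue fewer cells of a type and less RNA per cell cannot be told apart. Beside the fall of Smox, 10 of 12 endothelial markers, 4 of 8 measured adipocyte markers and 5 of 14 fast fibre markers fell, and 0 rose in any of these lists. The summed linear intensity of the endothelial markers was 1406 to 1477 with Gadd45a plasmid and 1759 to 1954 with control plasmid. That of the adipocyte markers was 541 to 564 with Gadd45a plasmid and 674 to 682 with control plasmid, and that of the fast fibre markers 41311 to 42844 with Gadd45a plasmid and 44403.5 to 48356 with control plasmid. Smox changed by -1.23, and the lowest log2 fold changes in these lists were -0.80, -0.73 and -0.78. The last of these is Mb, the myoglobin gene, which is richest in oxidative fibres, and the next in its list was Actn3, of fast fibres, at -0.54. The part of cell composition in the fall of Smox was not tested.

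Beside the rise of Azin1, 13 of 18 measured macrophage markers, 15 of 22 proliferation markers and 7 of 10 fibroblast markers rose, with medians of 0.64, 0.49 and 0.34. No macrophage or proliferation marker fell, and the fibroblast marker Gsn did. Summed linear intensities were 8278 to 9667 with Gadd45a plasmid and 5351 to 5745 with control plasmid for macrophages, 1940 to 2284 and 1342 to 1540 for proliferation, and 5902 to 6314 and 5251 to 5415 for fibroblasts. Means of 0 macrophage, 0 fibroblast and 8 proliferation markers lay below the 95th percentile of the receptor genes. The part of these cells in the rise of Azin1 was not tested.

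Genes were also ranked by how closely their profile over the 8 arrays, centred on its own mean, followed that of Smox or Azin1. Likeness was the root mean square difference between the centred log2 values. Nearest to Smox was Aldh1a1, a retinaldehyde dehydrogenase, at 0.125 log2 units, with a log2 fold change of -1.32. Tlcd4 (0.167), the phospholipase Plcd4 (0.184), the fructose bisphosphatase Fbp2 (0.184) and the actin-binding profilin Pfn2 (0.188) followed. Like Smox, Aldh1a1 was higher on control arrays 1 and 2 (9.62 and 9.66 log2 units) than on control arrays 3 and 4 (9.42 and 9.31).

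Nearest to Azin1 was Ptgfrn, a membrane protein that binds tetraspanins, at 0.0237 log2 units, with a log2 fold change of 0.56. It was highest on array 2 of the Gadd45a group and on array 3 of the control group, as Azin1 was. Airn, a long noncoding RNA antisense to Igf2r (0.0591), the integrin-linked kinase gene Ilk (0.0598), the inositol pyrophosphate kinase gene Ppip5k2 (0.06) and Spats2l (0.0609) came next. Such likeness rests mostly on the difference between the groups, which many probe sets share. The genes were picked for it, so an order of arrays shared with Smox or Azin1 follows from that choice.

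**Figure D5:**
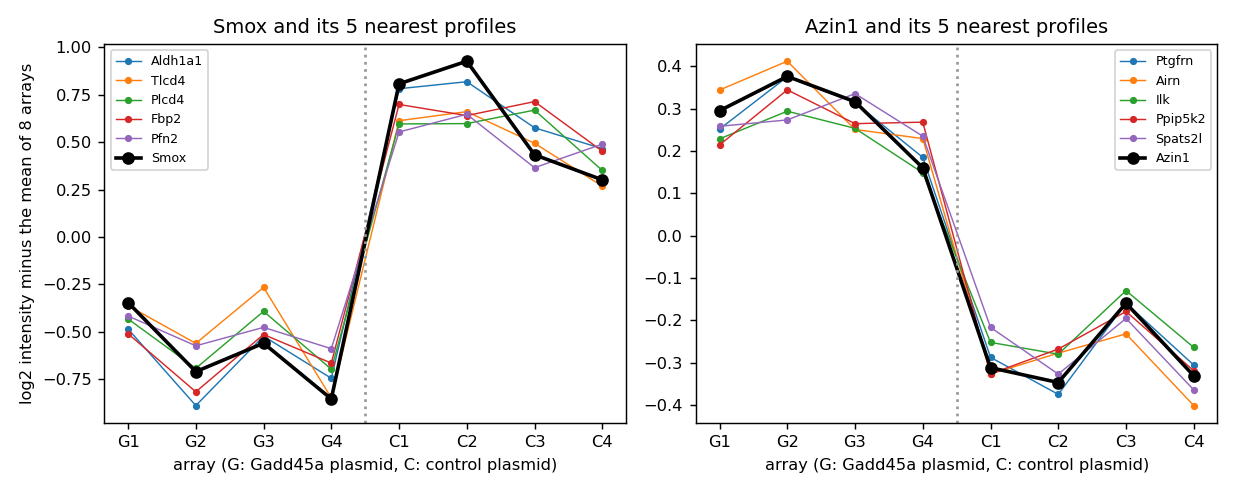
Log2 intensity minus the mean of 8 arrays for Smox (left, black) and Azin1 (right, black) and the 5 genes with the nearest profiles. Arrays are Gadd45a plasmid G1 to G4 and then control plasmid C1 to C4, and the lines only join points of 1 gene. Smox lies below its mean on all Gadd45a plasmid arrays and Azin1 above.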

How the data were processed

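Expression was measured on 8 arrays, 4 per group. Per the labels' protocols, RNA was extracted with TRIzol, amplified with NuGEN kits and biotin-labelled. The authors deposited 1 log2 intensity for each probe set on each array. GCOS, RMA and the build mm9 are named, without versions, per the submitters' processing notes. RMA evens out array brightness, so changes in total RNA are not seen. The choice of probe sets is not stated in those sources.

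Groups came from the titles. Of 16755 probe sets, 14996 had 1 symbol, 1019 several and 740 none listed in the array's annotation, and only the first kind was named; 14941 matched a RefSeq table of assembly GRCm38.p6 by gene identifier, with 0 symbols changed. For a gene with several probe sets, the one with the highest mean was used. Tests used limma 3.58.1 in R 4.3.3 (lmFit, eBayes, two-sided, no block), with Benjamini-Hochberg adjustment over all probe sets and a threshold of 0.05; SE is moderated. On simulated data with 200 of 16755 probe sets changed, the fit recovered 42.5% of changes of 0.5 log2 units and 89% of changes of 1. In the real data 21.1% of probe sets passed, which sets another adjusted threshold, so these shares do not carry over.

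Same-numbered arrays were not taken as pairs, because the labels do not tie a number to a mouse. Between same-numbered arrays, correlations of deviations from group means were 0.05 to 0.10, above those with any other number. A fit with the number as a block is therefore given below. The genes and the 18 lists were chosen with earlier results of these data known. Named were all measured polyamine genes and the 5 nearest profiles. From each other list came up to 4 genes that passed per direction or, where none passed, the 2 largest changes. Atp13a2, Arg1, Arg2, Slc7a1, Slc7a2, Mat2b, Mtap, Myc, Azin2, Oaz3, Aoc1 and Dhps were added after their values were seen. Alternatives covered normalization (quantile, median, cyclic loess), the sample number as a block, a filter at the median brightness, array weights, trended and robust variance, averaged probe sets, arrays left out, and thresholds of 0.01 and 0.1.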

Additional observations from a re-analysis of the deposited data

Results flagged for a closer look

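In the 154 groups of 4 arrays screened among the genes above, 7 held an array far from its group by Dixon's test (a gap to the nearest array that takes up most of the group's range), none of them in Smox, Azin1, Srm, Sms or Oaz2; chance marks about 1 in 20 groups. On Gadd45a plasmid arrays these were Gnmt on array 1 (5.002 log2 units, the others 4.87 to 4.89), Mycl on array 4 (4.83, the others 4.66 to 4.68) and Mlx on array 4 (6.06, the others 5.70 to 5.75). On control plasmid arrays they were Arg2 on array 1 (4.34, the others 4.65 to 4.69), Kyat1 on array 1 (6.41, the others 5.96 to 6.002), Slc47a1 on array 2 (6.80, the others 6.60 to 6.62) and Mat2b on array 4 (7.82, the others 7.75 to 7.76).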

How the results depend on the processing

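Smox remained lower and Azin1 higher, and Srm, Sms and Oaz2 did not pass, in all 20 alternatives to the fit, and the counts of 1 higher and 1 lower held at thresholds of 0.01 and 0.1 as well. The count of changed probe sets, 3542, ran between 1876 and 3174 without an array or a same-numbered pair and between 3171 and 3766 otherwise. With the sample number as a replicate block, Smox had -1.23 (SE 0.11, limma adjusted p = 0.00245), Azin1 0.57 (adjusted p = 0.00557) and Oaz2 -0.23 (SE 0.08, adjusted p = 0.0821), and no polyamine call changed; among the other named genes the calls for Nos2, Cbs, Adi1, Slc22a2, Mnt and Mga were lost with the block (adjusted p between 0.0583 and 0.103). Every array's deviations correlated best with those of its own number in the other group (0.05 to 0.10), a hint from the data and not from the design. Other normalizations moved the median log2 fold change of all probe sets to between -0.04 and -0.01. Of 22 called genes in the other pathway lists, 8 passed in every alternative fitted for them, 14 lost the call in at least 1 and 0 changed direction. Averaged probe sets and the other thresholds were not run for these genes. Those below the median brightness, such as Atp13a5, had no fit under the brightness filter. How often changes of about 0.5 log2 units were missed here is not known, since the simulation held fewer changed probe sets than passed in these data.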

Other observations

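The remaining marker lists describe the same muscles. Among 15 measured satellite cell and myoblast markers, 5 rose and 0 fell (median log2 fold change 0.18), led by the fusion protein gene Mymk (1.97) and the differentiation factor Myog. Of 8 T cell markers 3 rose and 0 fell (median 0.24), among them the T cell receptor subunit genes Cd3g and Cd3e. Of 7 Schwann cell markers 1 (Egr2) rose and 1 (Pmp22) fell (median -0.17). Of 12 genes that respond quickly to handling of the tissue, 2 (again Egr2, which is in both lists, and Btg2) rose and 0 fell (median 0.02).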
